A study of Nannochloropsis gaditana with 4 samples.

Results

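The genes described here are VDE1, VDE2, ZE and LCYB of the single-celled marine alga *Nannochloropsis gaditana*. They were chosen by their symbols as the xanthophyll cycle and carotenoid genes among 44 genes whose transcripts were quantified by PCR with SYBR Green, a dye that glows on double-stranded DNA. They are 4 of 36 target genes, and the other 8 genes were taken as reference (housekeeping) genes. The 8 include PAP1, which was added to them here and which recomputation found in the normalization (below). Flask cultures of strain CCAP 849/5, aerated with CO2-enriched air, were kept for 13 days under continuous light (CL, the control) or under flashes at frequencies of 5, 50 or 500 Hz and a duty cycle of 0.05. Averaged over time, every condition received 300 µmol s-1 m-2 of light, and during a flash the intensity was 6000 µmol s-1 m-2. Each condition was 1 sample of pooled RNA with 3 numbered repeats, and what a repeat was (a culture, a cDNA or a well) is not stated. The value columns of the flashing-light samples carry no frequency, so they are called A, B and C after the order of their columns, and no statement on frequency is made.

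Carotenoids are the accessory pigments of the chloroplast. Lycopene beta cyclase, named LCYB in the tables, closes the rings of lycopene to give beta-carotene, from which zeaxanthin and then violaxanthin are made. In the xanthophyll cycle, violaxanthin de-epoxidase converts violaxanthin to zeaxanthin in strong light, which helps the antenna to shed excess energy as heat, and zeaxanthin epoxidase turns it back when the light weakens. The tables list VDE1 and VDE2 as separate violaxanthin de-epoxidases of the chloroplast. ZE is named zeaxanthin de-epoxidase in the tables, whereas the enzyme usually so abbreviated is zeaxanthin epoxidase, so the direction of its reaction is not assumed here.

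Values are linear ratios that the authors normalized to housekeeping genes, which recomputation shows to be cyclophilin (CYP) and the phosphatidic acid phosphatase PAP1. Each gene was scaled to its own highest value, so levels can be compared between samples for a gene but not between genes. Changes are given as log2 differences of the means over the repeats, and their error combines the SDs of the 2 samples in quadrature, called the propagated SD, which holds no more than the scatter among repeats. Since each condition was a single sample, conditions were not tested against each other and p-values are not given. Instead, a difference of at least 2-fold that was also larger than 2 propagated SDs was called a change.

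VDE2 rose in sample A and was near the control in the other two flashing-light samples. Its normalized quantity was 0.430, 0.477 and 0.470 in the 3 repeats under continuous light, and 1.04, 1.10 and 1.15 in A. In B the repeats stood at 0.426, 0.409 and 0.629, and in C at 0.422, 0.406 and 0.493. All 3 repeats of A lay above all 9 other values of the gene, while the repeats of B, C and the control overlapped. The mean went from 0.459 ± 0.0252 (SD, n = 3) under continuous light to 1.10 ± 0.0558 (SD, n = 3) in A, a 2.39-fold difference and a log2 change of 1.26 ± 0.11. VDE2 was the only 1 of the 4 genes that rose in A, where 11.1% of the 36 targets rose by the same rule, and it ranked second of the 36 behind VCP1. Within the repeat numbers the difference was 2.41-fold, 2.31-fold and 2.44-fold.

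VDE2 in A also lay apart before any reference gene was applied. Before normalization, on a scale where the highest of a gene's 12 values is 1, the repeats of A stood at 0.928, 1 and 0.935. The highest of the 9 other values was 0.607, in repeat 3 of B. The lowest value of A lay above the other 9 in 11.1% of the targets on this scale, namely VDE2, VCP1, HAD and GPD1, and in 33.3% after normalization, LCYB among them. The ratios of each gene are whole steps of 0.01 cycle at 1 amplification base per gene, which allows the differences in threshold cycle to be read back. For VDE2 the base was 1.96 per cycle, where 2 is perfect doubling. Its signal came 1.37, 1.06 and 1.08 cycles after its earliest value under continuous light, and 0.11, 0 and 0.10 cycles after it in A. The delay was 0.97, 1.32 and 0.74 cycles in B, and 1.04, 0.75 and 1.46 cycles in C, so no repeat of these samples came within 0.74 cycles of the earliest.

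**Figure D1:**
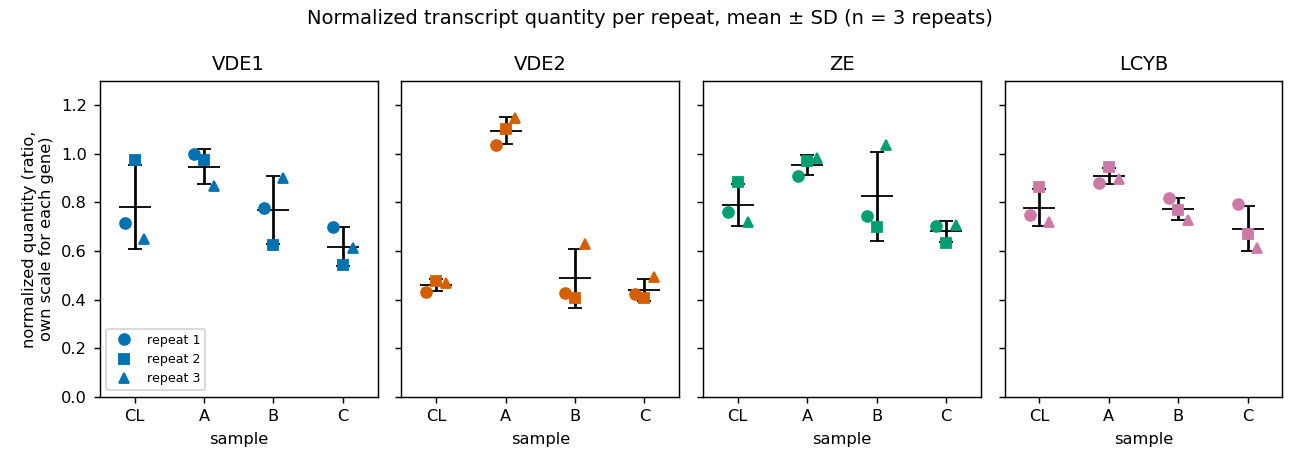
Normalized quantity (linear ratio, own scale for each gene) of VDE1, VDE2, ZE and LCYB in continuous light (CL) and the flashing-light samples A, B and C. Points are the 3 repeats and bars the mean ± SD (n = 3 repeats). VDE2 lies between 1.04 and 1.15 in A and at or below 0.629 elsewhere, while the samples of the other 3 genes lie closer together.

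VDE1, the other violaxanthin de-epoxidase, did not pass the rule of size in any flashing-light sample. It measured 0.716, 0.976 and 0.648 under continuous light, 1.00, 0.973 and 0.866 in A, 0.778, 0.625 and 0.903 in B, and 0.700, 0.541 and 0.614 in C. The control repeats overlapped with those of each flashing-light sample, and repeat 2 of the control lay well above the other two. The log2 change was 0.30 ± 0.33 in A, −0.02 ± 0.41 in B and −0.32 ± 0.36 in C, each within its propagated SD. Without repeat 2, VDE1 stood at 0.45 ± 0.18 in A, beyond 2 propagated SDs but under 2-fold, and at −0.06 ± 0.17 in C. VDE1 was the least precise of the 4 genes, with a median SD over repeats of 0.23 on the log2 scale, against 0.11 for VDE2, 0.12 for ZE, 0.11 for LCYB and 0.17 over all targets and samples. Its amplification base was 2.07, and its 12 values spanned 1.05 cycles, against 1.46 cycles for VDE2.

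With the deposited reference, ZE was slightly higher than the control in A and slightly lower in C, without passing the rule in either. Its quantity was 0.762, 0.886 and 0.718 under continuous light, 0.907, 0.972 and 0.984 in A, and 0.702, 0.633 and 0.707 in C. The 3 repeats of A lay above those of the control and the 3 of C below them, which were the positions of 41.7% and 16.7% of the targets. The log2 change was 0.28 ± 0.17 in A and −0.21 ± 0.18 in C. The separation in C was narrow, at 0.707 against 0.718 in repeat 3 of C and of the control. Without repeat 2 the change in C was −0.07 ± 0.06. In B, at 0.743, 0.699 and 1.04, the repeats overlapped with the control and repeat 3 held the highest ZE value of the 12. The change in B was 0.05 ± 0.34 and became −0.19 without that repeat. The amplification base of ZE was 2.00.

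LCYB had the smallest change of the 4 genes in A. It stood at 0.747, 0.864 and 0.721 under continuous light, 0.882, 0.947 and 0.896 in A, 0.819, 0.770 and 0.730 in B, and 0.793, 0.669 and 0.613 in C. The repeats of A were again above those of the control, narrowly, since repeat 2 of the control reached 0.864. The log2 change was 0.23 ± 0.15 in A, −0.01 ± 0.16 in B and −0.17 ± 0.23 in C. The amplification base was 2.05.

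Ordered by level with the deposited reference, A was the highest and C the lowest sample for each of the 4 genes. This was not particular to them, since VCP1, GPD1 and the pigment genes POR1 and ALAD had the same highest and lowest samples. Other targets differed, such as the nitrate reductase gene NR, which was lowest in A. The middle places were CL above B for VDE1 and LCYB, and B above CL for VDE2 and ZE. Of the 12 steps between neighbours in these orders, only that from A to the next sample in VDE2, at 1.19 ± 0.35, exceeded 2 propagated SDs. Within repeat numbers, a pairing with no stated basis, the step from A to the control in LCYB did so, at 0.23 ± 0.09. Without repeat 2 that step also did so, at 0.28 ± 0.04. Some other steps also passed this limit when a repeat was left out. Among them was that from A to the control in VDE1 without repeat 2, at 0.45 ± 0.18. Across the 4 genes the median log2 change was 0.29 in A, 0.02 in B and −0.19 in C, beside 0.20, −0.04 and −0.08 over the 36 targets. None of the 4 passed the rule in B or C, where 2.78% and 0% of the targets passed it.

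**Figure D2:**
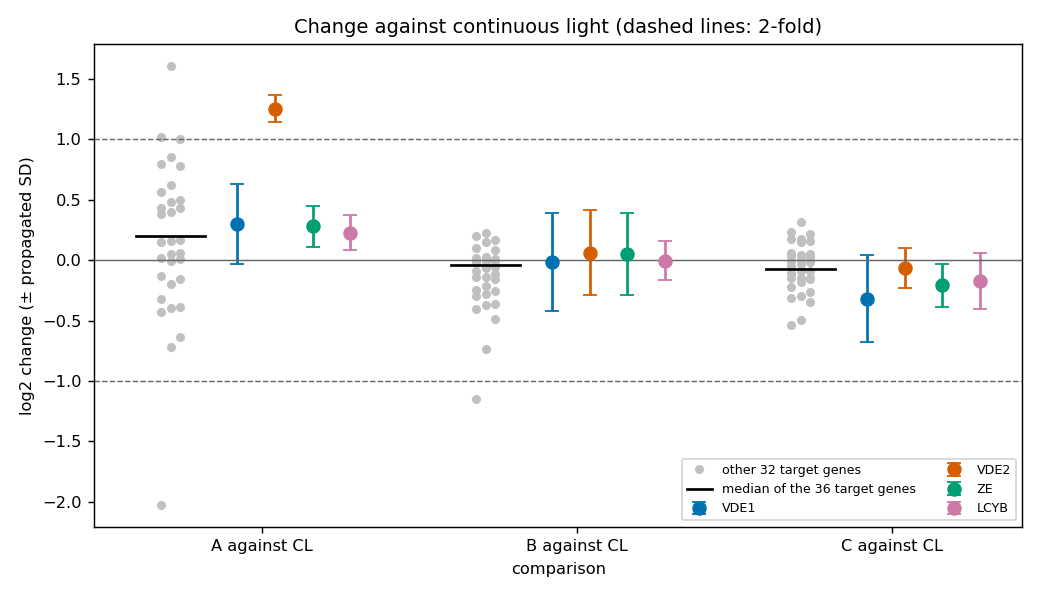
Log2 change against continuous light in A, B and C for the 4 genes (coloured, ± propagated SD) beside the other 32 targets (grey) and the median of the 36 targets (black bar). Dashed lines mark 2-fold, and VDE2 in A, at 1.26, is the only coloured point beyond them.

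Between flashing-light samples, the 4 genes were lower in C than in A, each by more than 2 propagated SDs and with repeats that did not overlap. Over the 36 targets, 44.4% were lower by that margin and 52.8% were lower without overlap. The log2 difference was −1.32 ± 0.17 for VDE2, −0.62 ± 0.22 for VDE1, −0.49 ± 0.11 for ZE and, narrowly beyond that limit, −0.40 ± 0.20 for LCYB. Taken within repeat numbers, the LCYB difference had an SD of 0.22 and was not beyond 2 of them. VDE2 passed the rule of size, as did 16.7% of the targets in this direction. These differences share sample A with those above. The direction depended on the reference for all but VDE2, since with the ubiquitin family gene UFP as reference VDE1, ZE and LCYB were higher in C, at 0.19, 0.32 and 0.40.

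B was lower than A in VDE2, at −1.19 ± 0.35, the only member among the 11.1% of targets that fell by the rule. LCYB, at −0.23 ± 0.10, was beyond 2 propagated SDs but under 2-fold, with VDE2 among the 33.3% of targets lower by that margin, and its repeats lay below those of A, as in 38.9% of the targets. VDE1 at −0.31 ± 0.29 and ZE at −0.23 ± 0.31 overlapped with A. Over 11 other ways to set the level (other reference genes, none, or centring on the median target), B stood above A in 2 for VDE1, in 3 for ZE, in 3 for LCYB and in none for VDE2. Between C and B the differences ran from −0.31 ± 0.33 for VDE1 to −0.12 ± 0.37 for VDE2, with overlapping repeats in all 4 genes, where 41.7% of the targets did not overlap.

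The ratio of a pair of these genes within a repeat does not depend on the reference. The ratio of VDE2 to each of its 3 partners was higher in A than under continuous light, while the ratios among the partners shifted by less than their propagated SDs. Since each gene has its own scale, only shifts between samples are read from these ratios. The log2 ratio of VDE2 to VDE1 was −0.74, −1.03 and −0.46 in the control repeats and 0.05, 0.18 and 0.41 in A, a shift of 0.96 ± 0.34. For VDE2 to ZE it was −0.82, −0.89 and −0.61 in the control and 0.19, 0.18 and 0.22 in A, a shift of 0.97 ± 0.15. For VDE2 to LCYB it was −0.80, −0.86 and −0.62 in the control and 0.23, 0.22 and 0.36 in A, a shift of 1.03 ± 0.15. None of the 3 overlapped with the control, as in 59.5% of the 630 pairs of targets, and each exceeded 2 propagated SDs, as did 43.3% of those pairs. VDE2 to LCYB reached 2-fold, at 2.04-fold, where 21.4% of the pairs passed both limits, and VDE2 to VDE1 and VDE2 to ZE stood just under it, at 1.94-fold and 1.97-fold. The side of the 2-fold limit depended on the calculation for the last 2 pairs. VDE2 to ZE passed at 1.02 with the median of the repeats, 1.003 with an amplification base of 2 and 1.04 without repeat 3, and VDE2 to VDE1 passed at 1.04 without repeat 1.

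The pairs without VDE2 shifted little in A. VDE1 to ZE moved by 0.02 ± 0.22, VDE1 to LCYB by 0.07 ± 0.21 and ZE to LCYB by 0.05 ± 0.06 on the log2 scale. The repeats of ZE to LCYB in A, at 0.04, 0.04 and 0.14, nevertheless lay just above those of the control, at 0.03, 0.04 and −0.01. The lowest in A, at 0.0372, and the highest in the control, at 0.0358, were closer than the 0.01-cycle step of the values. In B the 6 pairs shifted by −0.07 to 0.08 and in C by −0.15 to 0.26, each within its propagated SD. The separation of VDE2 from ZE in A was also present against B, at −0.97 ± 0.05, and C, at −0.83 ± 0.11 for these samples minus A. The errors were wider for the other partners of VDE2. With LCYB the shifts were −0.96 ± 0.42 for B and −0.92 ± 0.31 for C, and with VDE1 −0.88 ± 0.26 and −0.70 ± 0.28. The share over all pairs of targets is not given for B and C against A.

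**Figure D3:**
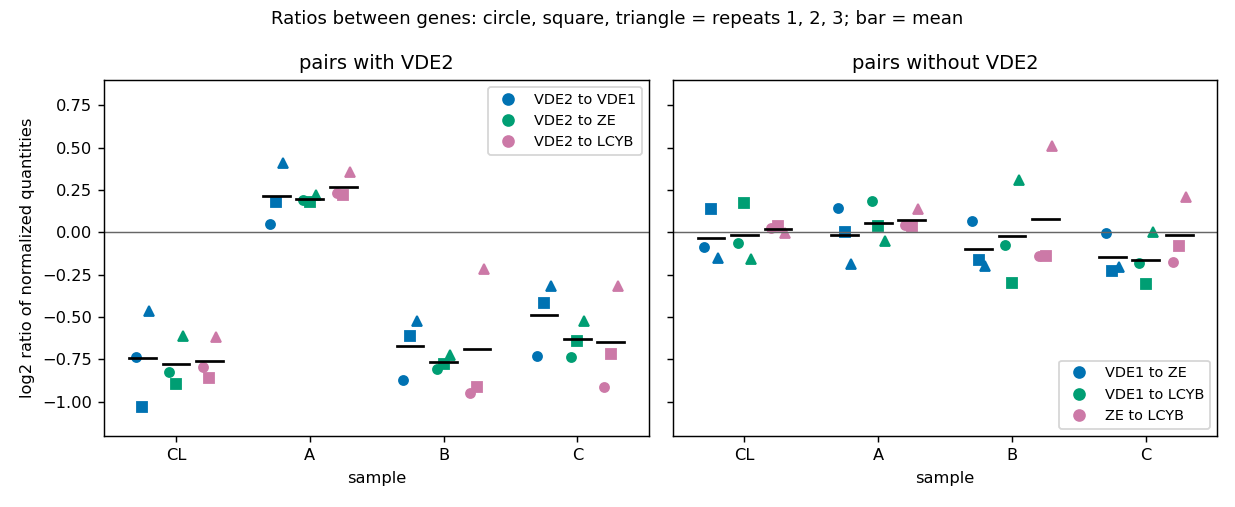
Log2 ratio of normalized quantities for the 6 pairs of genes in each sample, with circles, squares and triangles for repeats 1, 2 and 3 and a bar for the mean. The 3 pairs with VDE2 lie between 0.05 and 0.41 in A, above every repeat of the other samples. The pairs without VDE2 have no such step. Of these, VDE1 to LCYB and ZE to LCYB spread most in B, where ZE to LCYB reaches 0.51, and VDE1 to ZE spreads most in A. The position of 0 follows from the scaling of each gene, so only shifts between samples can be read.

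By the median SD over the 36 targets, the repeats were least tight in B, at 0.22 on the log2 scale against 0.19 under continuous light, 0.14 in C and 0.10 in A. VDE2 and ZE were also widest in B, at 0.34 and 0.31, but VDE1 was widest under continuous light, at 0.31, and LCYB in C, at 0.19. Repeat 3 of B stood above the mean of its sample by 0.40 for VDE2, 0.35 for ZE and 0.25 for VDE1 on the log2 scale, and by 0.21 for the median target, with 29 of 36 targets above their mean. LCYB went the other way, at −0.08, so the log2 ratio of ZE to LCYB was −0.14 in repeats 1 and 2 and 0.51 in repeat 3. A deviation shared over targets was not particular to repeat 3 of B. In repeat 3 of C, 29 of 36 targets were also above their mean. In repeat 2 of B and repeat 1 of the control, 6 of 36 were. Whether repeat 3 of B differed in its RNA or in its measurement was not tested. Leaving out each repeat in turn moved the change against continuous light in B across 0 for all 4 genes, from −0.12 to 0.20 for VDE2 and from −0.26 to 0.30 for VDE1. In A the same procedure kept VDE2 between 1.24 and 1.28.

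The size of the changes depended on the reference genes. The normalization factor ran from 0.757 in repeat 3 of C to 1.49 in repeat 2 of C. Beside the deposited reference, UFP was higher in A than under continuous light by 0.60 on the log2 scale and beta tubulin (BT) was lower by 1.61, and such a difference shifts all 4 genes alike. Over 11 other ways to set the level, VDE2 in A against the control ran from 0.66 with UFP alone to 2.86 with BT alone, was above 0 in all 11, and passed the rule in 9. It did not pass with UFP alone, at 0.66 ± 0.37, or after centring on the median target, at 0.93 ± 0.13. VDE1, ZE and LCYB in A were below the control in 2 of the 11, at −0.30, −0.32 and −0.37 with UFP and at −0.03, −0.04 and −0.10 after centring.

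**Figure D4:**
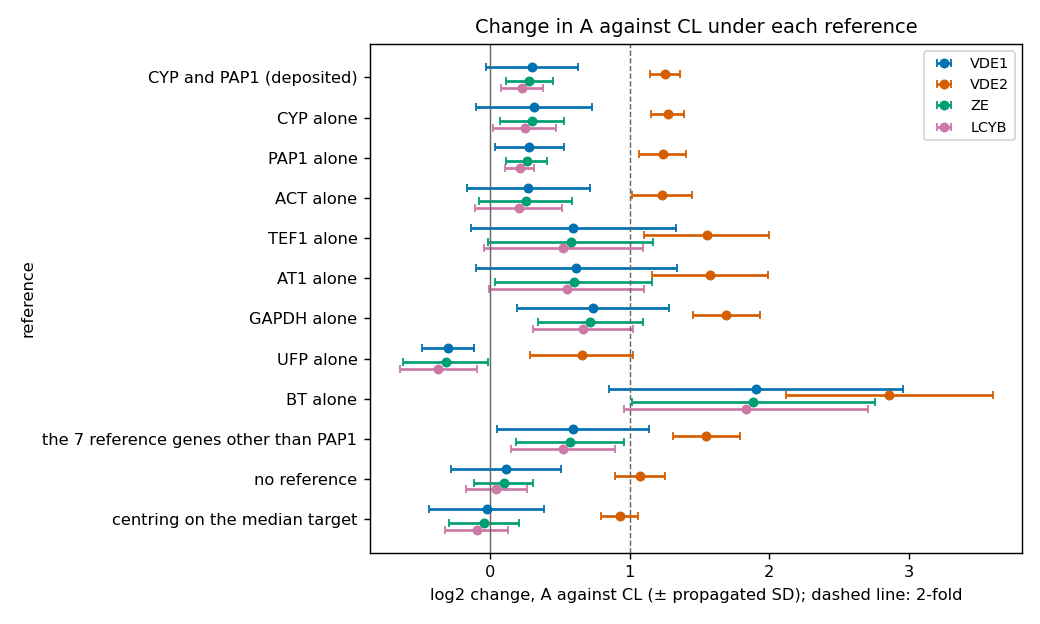
Log2 change of the 4 genes in A against continuous light (± propagated SD) under the deposited reference and 11 other ways to set the level. VDE2 stays to the right of 0 and about 1 unit above the other 3 genes, which change side with UFP and after centring.

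The other pigment genes measured were VCP1, the violaxanthin-chlorophyll protein of the antenna, POR1, the light-dependent protochlorophyllide oxidoreductase, and ALAD, of tetrapyrrole synthesis. In A they stood at 1.61 ± 0.38, 1.00 ± 0.19 and 0.62 ± 0.13 against the control, so that 2 of 3 passed the rule, beside 1 of the 4 genes described here and 11.1% of the 36 targets. POR1 passed by a narrow margin, and fell short with 5 of the 11 other settings, among them PAP1 alone at 0.98 and ACT alone at 0.98, which leaves VCP1 alone. ALAD passed with 2 of the 11, BT and GAPDH. In C they were at −0.35 ± 0.42, −0.50 ± 0.23 and −0.16 ± 0.18. The 4 genes described here were likewise below the control in C with the deposited reference, but VDE2 stood above it with 3 of the 11 other settings, by up to 0.14, and LCYB with 2, by up to 0.03.

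Patterns were compared by the root-mean-square difference of the 3 log2 changes against continuous light, over the 43 other genes of the table. The closest to VDE2 were HAD, the hydroxyacyl-ACP dehydratase of fatty acid synthesis, at 0.14, the glycerol-3-phosphate dehydrogenase GPD1 at 0.27 and VCP1 at 0.27. VDE1 came 17th for VDE2, and VDE2 came 38th for VDE1. The closest to VDE1 were ZE at 0.08, the glycerol-3-phosphate acyltransferase GPAT at 0.08 and LCYB at 0.09. For ZE they were LCYB at 0.05, VDE1 at 0.08 and the acylglycerol-phosphate acyltransferase LPAT2 at 0.08, and for LCYB they were ZE at 0.05, LPAT2 at 0.09 and VDE1 at 0.09. The distances around VDE1, ZE and LCYB are smaller than the propagated SDs of their changes, so the order among such near genes is within the spread of the repeats. The 3 distances around VDE2 are above its propagated SD in A, at 0.11, but below that in B, at 0.35. The order among its near genes is therefore not settled either.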

How the data were processed

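The authors deposited 3 tables of 132 rows (44 genes, 3 repeats). The first holds, per the values, a linear ratio to the highest of a gene's 12 values, and no threshold cycles, so the distance to the detection limit is unknown. The second holds that ratio normalized to housekeeping genes and the third the fold of test over control, both deposited by the authors, per the file headers. The sources used here name no instrument or software. Recomputation gave the factor as the geometric mean of CYP and PAP1, equal within 0.1% for 43 genes. The MCT row held the factor itself and was recomputed from its ratio. The control column was recognised as the divisor of the fold table, and CL is the only sample labelled control. All 36 fold values of the 4 genes equalled the ratio of normalized values within 0.1%.

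Log2 means over repeats, propagated SDs and amplification bases were computed in Python 3.11.15 with numpy, on code tested on simulated data. Other references, no reference, centring on the median target, a base of 2, other means of the repeats, other limits and leaving out each repeat were tried. Named genes were the 4 genes, the other pigment genes, reference genes that turn a direction, and the 3 closest patterns per gene. Genes and lists were chosen with earlier results of these data known.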

Additional observations from a re-analysis of the deposited data

Results flagged for a closer look

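ZE was higher than continuous light in the 3 repeats of A and lower in the 3 repeats of C when matched by repeat number, a difference of 0.49 on the log2 scale between the 2 changes. It is the 1 case of this kind in 12 checks (4 genes, 3 pairs of flashing-light samples), and the difference was not tested, since each condition had 1 sample. The checks did not cover the other targets. Some of those, among them POR1 and GPAT, were likewise higher in all repeats of A and lower in all repeats of C, whereas VCP1 and ALAD were not. The pattern is therefore not particular to ZE. With UFP as reference ZE stood at −0.32 in A and at −0.002 in C, and after centring on the median target at −0.04 in A.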

How the results depend on the processing

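The 24 alternative settings gave 858 values, of which 733 moved by less than their spread (counts: less than 1.5 times), 125 moved further and none reversed a called value. The 252 ratios between the 4 genes all moved by less than their spread, though some crossed 2-fold. MCT as deposited, and other references for VCP1, POR1 and ALAD, were chosen after seeing the data. A reference shifts all genes alike; other causes were not tested. VDE2 in A against CL was 1.55 with TEF1, 0.66 with UFP, 1.57 with AT1, 2.86 with BT, 1.69 with GAPDH, 1.55 with the 7 references other than PAP1, 1.07 with no reference, 0.93 centred on the median target and 0.96 centred with MCT as deposited. VDE2 in B against A was −0.64 with UFP, −0.78 centred and −0.83 centred with MCT as deposited, and did not pass the rule with BT or no reference either. VDE2 in C against A was −1.63 with TEF1, −0.51 with UFP, −3.20 with BT, −1.77 with GAPDH, −1.60 with the 7 references, −0.99 with no reference, −1.03 centred and −1.04 centred with MCT as deposited. Of the 4 genes, 1 passed the rule in each of these comparisons, and in A against CL this became 0 with UFP, centring (also with MCT as deposited) or a 3-fold limit and 3 with BT. In B against A it became 0 with UFP, BT, no reference, centring (both ways) or 3-fold. In C against A it became 0 with UFP, no reference or 3-fold, 2 with GAPDH or 1.5-fold, and 4 with BT. No paired analysis was possible because each condition was 1 sample; differences within repeat numbers, a replicate block, left the counts at 1 in A against CL and the VDE2 change at 1.26.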
